A study of Mus musculus with 41 samples.

Results

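The transcript levels of 8 genes of the Ras pathway were followed, tumor by tumor, through RNA-seq of mouse mammary tumors. These genes, out of 47480 gene symbols in the deposited table, were the GTPase genes Hras and Nras, the kinase gene Braf, the phosphatase gene Dusp6, the Sprouty genes Spry2 and Spry4, and the transcription factor genes Etv4 and Etv5. They were chosen by name, without a threshold on any measured value. The table holds 41 tumors with 1 library each, of which 28 were Plk2-/-; p53-/- and 13 were p53-/-, and these genotypes are called Plk2-null and p53-null here, although both lack p53. All tumors were of the Balb/c background, grew untreated in the mammary fat pads of syngeneic hosts. The series describes them as serially transplanted, without saying how often each tumor had been passed on. For the Plk2-null bank, mammary epithelial cells of Plk2-/-; p53-/- mice were transplanted into fat pads of hosts wild type for both genes.

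Ras proteins are switches at the inner face of the plasma membrane. When a growth factor receptor is engaged, exchange factors load Ras with GTP, and Ras-GTP recruits Raf kinases, which phosphorylate MEK, which in turn phosphorylates ERK (the MAP kinase, MAPK). ERK drives transcription of genes that include its own inhibitors: Dusp6 removes phosphate from ERK in the cytoplasm, Sprouty proteins act upstream between the receptor and Raf, and Etv4 and Etv5 are ETS-family activators whose transcripts are widely used as readouts of the pathway. Transcript levels of Hras, Nras and Braf describe how much of a component is made and not how active it is, and no protein or phosphorylation was measured in these libraries.

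Several facts touch every result. The titles of all 13 p53-null libraries end in ROSEN and a number and none of the Plk2-null titles does. The labels do not say what this suffix stands for, and whatever it marks cannot be told apart from genotype. The labels do not say which tumors descend from the same transplant line, so p-values over tumors may be too small. The Plk2-null tumors had a median of 39053967 fragments on genes (31910235 to 53244746) and the p53-null tumors 58042747 (29409598 to 70868089). These were estimated by taking the most frequent low nonzero value of each tumor as the worth of a single read. Values were normalized by upper quartile, and in the tumor checked 1000 was the upper quartile of the nonzero genes. Over all tumors 3 reads were worth 1.16 to 2.45, far below every value of the 8 genes. Plk2, the targeted gene, had a mean of 298 ± 149 (SD, n = 28) in Plk2-null and 3436 ± 2104 (SD, n = 13) in p53-null tumors, but the library labelled p53null-7435 read 186, inside the Plk2-null range of 36.6 to 553. Trp53 transcripts were present in both genotypes (medians, 2597 and 1818), and since the position of the deletion was not given they check no label. Summed epithelial markers (Epcam, Krt8, Krt18 and Cdh1) ran from 40.1 to 109867 in Plk2-null and from 33708 to 272602 in p53-null tumors, with medians of 66817 and 103459. They were nearly absent from 3 Plk2-null tumors of the claudin-low class, PLK2null-732, PLK2null-733 and PLK2null-743 (248, 50.9 and 40.1), whose summed endothelial markers were 186496, 176854 and 165585 against a median of 4889 over the Plk2-null tumors. PLK2null-7763 also stood apart, with an epithelial sum of 12794 and an endothelial sum of 78025. Summed proliferation markers had medians of 20511 in Plk2-null and 13248 in p53-null tumors. Summed skeletal muscle markers (Ckm, Acta1, Myh4 and Mylpf) had medians of 34.6 and 85.0. They were far higher in p53null-2153L (34313), p53null-7435 (23768.5) and PLK2null-7764 (2648.5). The part of these markers in the genotype differences was not tested, and in bulk tumor RNA fewer cells of a type and less RNA per cell cannot be told apart.

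Hras and Nras encode closely related GTPases, so it matters whether short reads can tell them apart. Their coding sequences are both 567 bases long and identical at 75.3% of positions, and the longest run they share is 23 bases, shorter than the 50-base reads. Over whole transcripts, no 50-base window of Hras, Dusp6, Spry2, Spry4 or Etv4 occurred in another annotated gene. For Nras 0.733% and for Braf 0.691% of windows did, the latter all in the overlapping gene Ndufb2. Etv5 was the exception, with 24.5% of its windows shared with the pseudogene Gm4798, which has no row in the table, so its level is less certain than the others.

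Compared per kilobase of exon, which allows genes to be ranked against each other, Dusp6 and the ETS genes were the most abundant. The median over 41 tumors was 1857 per kilobase for Dusp6 and 1316 for Etv5, followed by Etv4 at 662, with Nras close behind at 635. Spry2 (483) and Hras (473) lay close together, and Spry4 (183) and Braf (89.4) were lowest. Relative spread followed another order: the coefficient of variation over the Plk2-null tumors was 22.2% for Nras and 30.5% for Hras, and reached 74.4% for Etv5. The plot of values by tumor shows each gene in both genotypes.

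**Figure D1:**
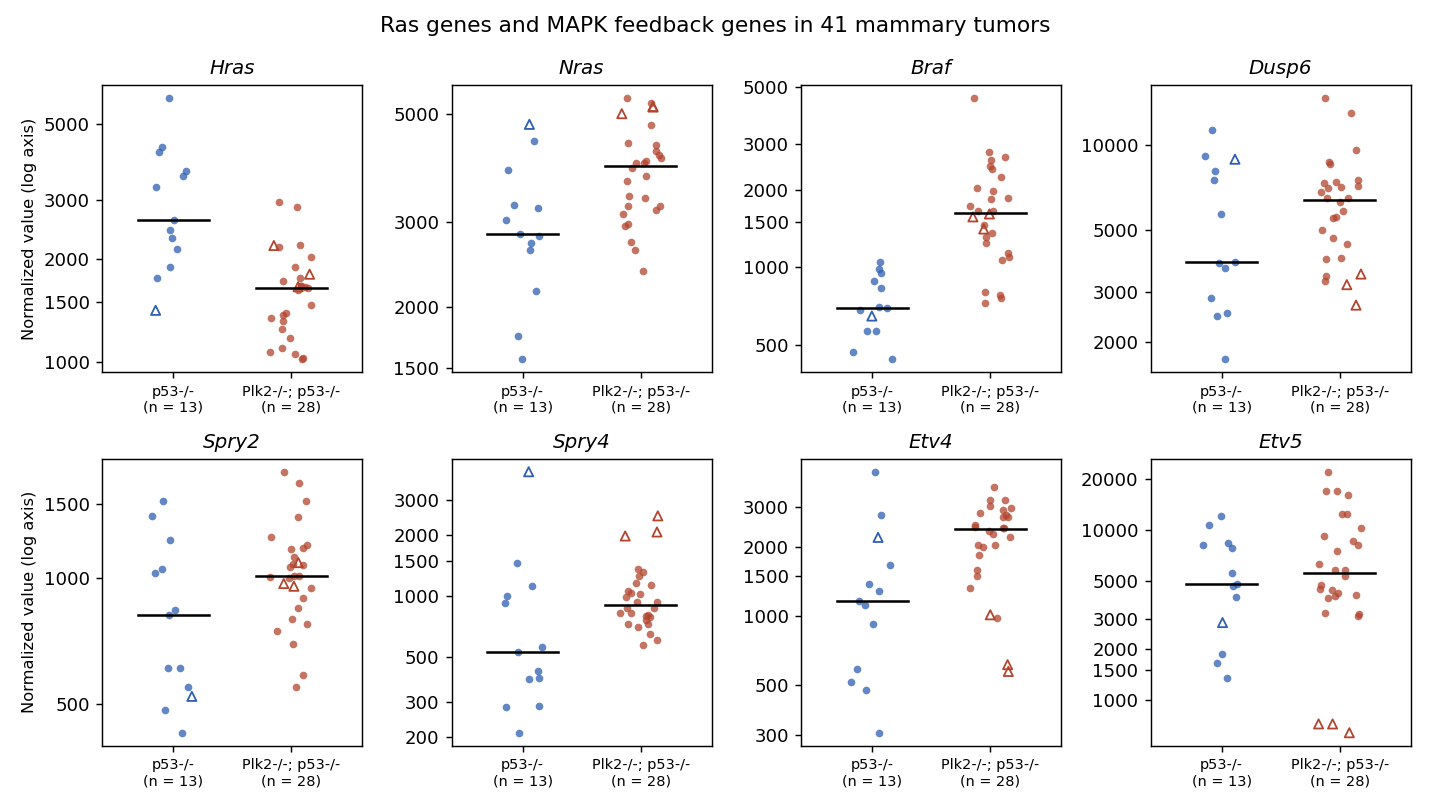
Normalized value of each gene in each tumor (log axis), with p53-/- tumors in blue and Plk2-/-; p53-/- tumors in red, black bars at group medians, and open triangles for the 3 claudin-low Plk2-null tumors and for T11, a claudin-low p53-null tumor. Braf is set apart by genotype, with 24 of 28 Plk2-null tumors above all p53-null tumors, and the claudin-low Plk2-null tumors are the lowest Etv5 values.

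Of the 8 genes, Nras, Braf, Spry4 and Etv4 were higher in Plk2-null tumors, Hras was lower, and Dusp6, Spry2 and Etv5 did not pass the test (limma on log2(value + 1), Benjamini-Hochberg adjusted over 17208 genes, threshold 0.05). Over all genes tested 39.5% were called, 24.3% higher and 15.3% lower, and the 5 of 8 has to be read against that share. The median log2 difference of the 8 genes was 0.38, beside 0.10 over all genes, and a rescaling by the trimmed mean of log ratios (TMM) moved the median of all genes to -0.03. Every gene kept its direction in all alternatives, that rescaling included. Each of the 5 calls was lost under at least 1 alternative, given with the gene.

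Braf, the Raf kinase with the strongest basal activity toward MEK, showed the largest difference. It lies at chr6:39603237-39725463 on the minus strand. Its values in Plk2-null tumors ran from 728 in PLK2null-1986 through a median of 1628 to 4531 in PLK2null-1970, and in p53-null tumors from 441 in p53null-10152 through 692 to 1049 in p53null-2331L. The genotypes barely overlapped: the 4 Plk2-null tumors inside the p53-null range were PLK2null-1984, PLK2null-1985, PLK2null-1986 and PLK2null-7750, at 728 to 802, and every Plk2-null tumor exceeded the p53-null median. The difference was 1.17 ± 0.19 (log2, SE), or 2.25-fold, with an adjusted p of 4.44e-06 by limma (n = 28 and 13). It was 1.25 (adjusted p = 0.0011, limma) when the 13 p53-null tumors were set against only the 7 Plk2-null tumors that bear the numbers of primary tumors in the study's latency plot, called the 7 primary tumors here. Braf is in the decile of genes with the longest transcripts, and correction of each tumor for transcript length and GC content, an alternative added after seeing the data, brought the difference to 0.44, which no longer passed (adjusted p = 0.0531, limma).

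The differences between genotypes trended with transcript length across all genes tested. Among the genes in the shortest decile by longest annotated transcript, the median log2 difference was -0.41, with 16.2% called higher and 40.7% lower. Among those in the longest decile it was 0.55, with 48.4% called higher and 2.59% lower. The trend with GC content ran the other way, from 0.38 in the decile with least GC to -0.19 in the decile with most. Braf (9728 bases) is in the longest decile and in the second decile by GC content, and Nras (4470 bases) is in the eighth by length and also the second by GC. Hras is in the fifth decile by length and the eighth by GC, where the medians were 0.01 and -0.08, and Etv4 in the fourth by length and the highest by GC, where they were -0.02 and -0.19.

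**Figure D2:**
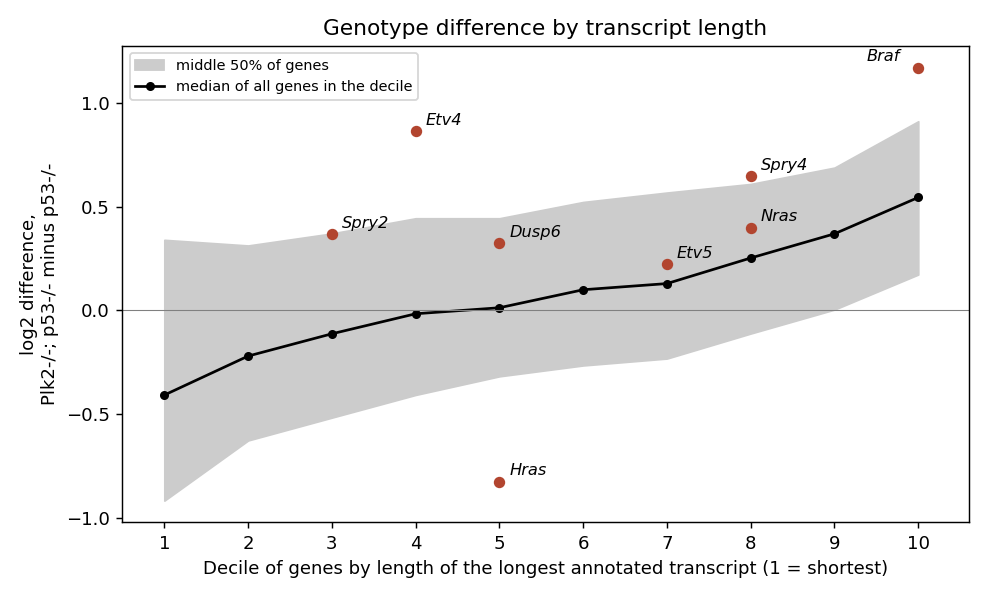
Log2 difference between genotypes (vertical axis) by decile of transcript length (horizontal axis), with the median of all genes in black, the middle 50% of genes in grey and the 8 genes in red. The median climbs from -0.41 to 0.55, Nras and Spry4 lie above it by less than Etv4 does, and Hras lies below it.

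Hras, the Ras gene at chr7:141189105-141194005 (minus strand), went the opposite way to Braf and Nras. Plk2-null tumors held between 1020.4 (PLK2null-7750) and 2944 (PLK2null-7763) with a median of 1654. The p53-null values went from 1418 in T11 to 5962 in p53null-5317, with a median of 2621. Although the ranges overlapped, 11 Plk2-null tumors fell below every p53-null tumor and 6 p53-null tumors rose above every Plk2-null tumor. The difference was -0.83 ± 0.16 (log2, SE), a level 1.77-fold lower in Plk2-null tumors (adjusted p = 6.92e-05, limma, n = 28 and 13). Corrected for length and GC content it was -0.76 (adjusted p = 1.74e-04, limma), while with the 7 primary tumors alone it was -0.62 and did not pass (adjusted p = 0.133, limma).

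Nras, at chr3:103058285-103067914 on the plus strand, varied least over the 41 tumors, although Braf varied less within the p53-null group. It ran from 2376 (PLK2null-1965) to 5402 (PLK2null-1973) around a median of 3920 in the Plk2-null group, where the claudin-low PLK2null-732, PLK2null-733 and PLK2null-743 were near the top at 5190, 5175 and 5015. The p53-null group ran from 1564 (p53null-2396R) to 4767 (T11) around 2837. Only 5 Plk2-null tumors exceeded all p53-null tumors, so the groups overlapped for the most part. The difference was 0.40 ± 0.13 (log2, SE; adjusted p = 0.0124, limma, n = 28 and 13). It did not pass after TMM rescaling (0.28, adjusted p = 0.125, limma), with the 7 primary tumors (0.28, adjusted p = 0.404) or after the length and GC correction (0.04, adjusted p = 0.856).

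Etv4, an ETS activator at chr11:101769742-101785371 (minus strand), was called and its relative Etv5 was not. Plk2-null values went from 572 in PLK2null-733 to 3700.4 in PLK2null-1971, with a median of 2400.5. Values in p53-null tumors were more spread out, from 308 in p53null-10151 to 4296 in p53null-2153L, with a median of 1164. The highest tumor of all was thus p53-null, and 24 of 28 Plk2-null tumors exceeded the p53-null median. The 4 that did not were the claudin-low PLK2null-732, PLK2null-733 and PLK2null-743, at 1014, 572 and 613, and PLK2null-7748 at 977. The difference was 0.87 ± 0.28 (log2, SE), or 1.82-fold (adjusted p = 0.0107, limma, n = 28 and 13). The length and GC correction left it at 1.02 (adjusted p = 0.00471, limma), and with the 7 primary tumors it was 0.76 and did not pass (adjusted p = 0.243, limma).

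Etv5, its close relative at chr16:22381309-22439719 (minus strand), had the widest range of the 8. Within the Plk2-null group it ran from 639 in PLK2null-733 through a median of 5604 to 22103 in PLK2null-1964, a 34.6-fold range. The 3 claudin-low tumors sat alone at the bottom at 720, 639 and 720, and the next value was 3109 in PLK2null-1989. At the top, PLK2null-1964, PLK2null-7747, PLK2null-1965, PLK2null-1971, PLK2null-7748 and PLK2null-1963 exceeded every p53-null tumor, at 12377 to 22103. In the p53-null group Etv5 ran from 1340 (p53null-5329) through 4829 to 12069 (p53null-2331L). No genotype difference was detected: it was 0.22 ± 0.41 (log2, SE), with a 95% interval of -0.60 to 1.05 and an adjusted p of 0.697 (limma, n = 28 and 13). That interval leaves room for a difference as large as that of Etv4.

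Dusp6, the ERK phosphatase gene at chr10:99263231-99267489 (plus strand), also spread widely without a called difference. It went from 2704 in PLK2null-733 to 14701 in PLK2null-1980 (median, 6375) in Plk2-null and from 1741 in p53null-2224L to 11289 in p53null-2208L (median, 3843) in p53-null tumors. Both PLK2null-1980 and PLK2null-7764, at 13035, lay above all p53-null tumors, and the claudin-low Plk2-null tumors were low at 3196, 2704 and 3485, whereas the claudin-low p53-null tumor T11 was at 8913. The difference was 0.33 ± 0.23 (log2, SE) with a 95% interval of -0.14 to 0.79 (adjusted p = 0.271, limma, n = 28 and 13).

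The Sprouty genes are inhibitors of receptor tyrosine kinase signaling. Spry2, at chr14:105891947-105896819 (minus strand), ranged from 550.5 in PLK2null-7748 to 1796 in PLK2null-1980 (median, 1011) in Plk2-null and from 427 in p53null-5317 to 1525 in p53null-2396R (median, 818) in p53-null tumors. The groups overlapped largely, with 3 Plk2-null tumors above and 4 p53-null tumors below the other group. The difference of 0.37 ± 0.16 (log2, SE) did not pass (adjusted p = 0.0669, limma, n = 28 and 13). It passed when 1 of 5 tumors was left out (p53null-2396R, p53null-10152, p53null-2153L, PLK2null-7748 or PLK2null-1963), with an adjusted p of 0.0238 without p53null-2396R.

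Spry4 on chromosome 18 was the weakest of the called genes. Plk2-null tumors ran from 573 in PLK2null-1987 to 2499.5 in PLK2null-732, with a median of 905, and the 3 highest were the claudin-low PLK2null-732, PLK2null-733 and PLK2null-743 (2499.5, 2079 and 1986.1). The p53-null tumors ran from 210.4 in p53null-7435 to 4135 in T11, with a median of 530.4. T11, also claudin-low, was the highest of all 41, and 8 p53-null tumors lay below every Plk2-null tumor. The difference was 0.65 ± 0.26 (log2, SE; adjusted p = 0.0441, limma, n = 28 and 13). The call did not survive the removal of 18 of the 41 tumors taken singly, among them p53null-7435, the library whose Plk2 value goes against its label (0.52, adjusted p = 0.105, limma), whose removal changed no other call of the 8. It passed most clearly without T11 (0.88, adjusted p = 0.00154). It also did not pass with TMM rescaling (0.53, adjusted p = 0.121), quantile normalization (0.61, adjusted p = 0.0624) or no filter on low genes (adjusted p = 0.0594).

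The 4 claudin-low tumors had high Spry4 in common, while Etv4 and Etv5 differed among them. All 4 had more Spry4 than any of the other 37, the next value being 1456 in p53null-10155. Etv5 and Etv4 were 2851 and 2215 in T11 but at most 720 and 1014 in the Plk2-null claudin-low tumors. Without these 4 tumors each of the 5 calls held and none was added. The differences of Dusp6 and Etv5 were then 0.51 and 0.52 (adjusted p = 0.0659 and 0.189, limma), against 0.33 and 0.22 with them. The values by class are a description without a test, since the labels do not give the class, and the markers set T11 apart from the others of the class: its endothelial sum was 6876 and its epithelial sum 33708, close to the 34042 of PLK2null-1963.

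**Figure D3:**
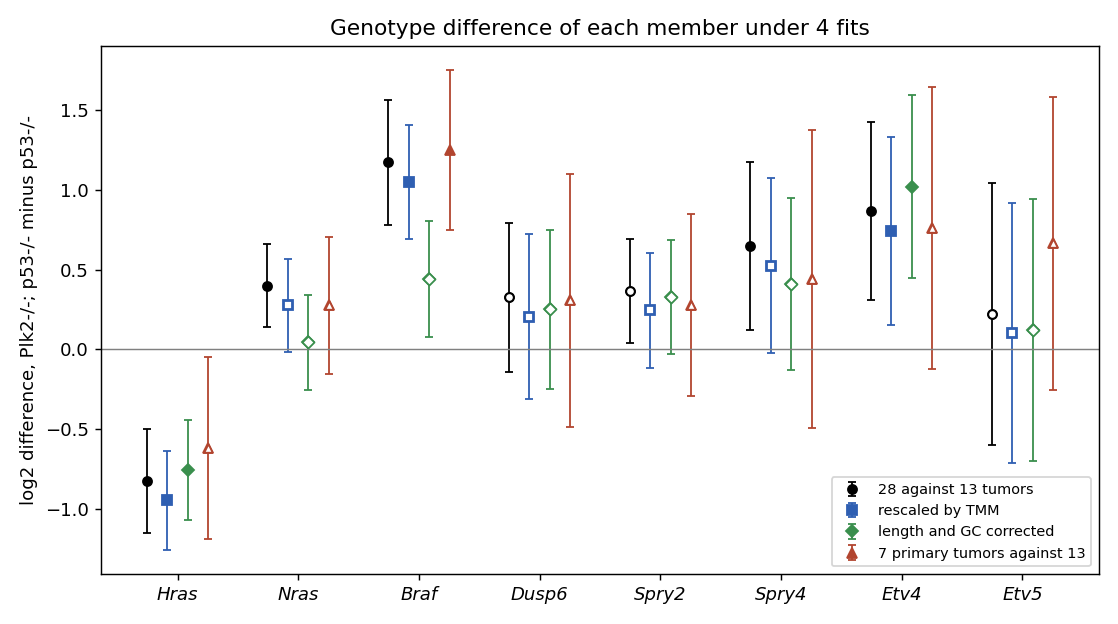
Log2 difference between genotypes of each gene with its 95% interval under 4 fits: all tumors, all tumors rescaled by TMM, all tumors corrected for length and GC content, and the 7 primary tumors against 13. Filled symbols pass an adjusted p of 0.05. Hras lies below 0 and Braf above 0 in all 4, and Braf drops from 1.17 to 0.44 with the correction.

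The rest of the pathway was examined in lists of 46 genes that include the 8. Of these, 18 were higher and 4 lower in Plk2-null tumors, beside 24.3% and 15.3% of all genes tested, with a median log2 difference of 0.41 beside 0.10, and without the 8 genes the counts were 14 and 3 of 38. With the length and GC correction the split became 9 higher and 8 lower, beside 2716 higher and 2876 lower of the 16635 genes in that fit. With the 7 primary tumors it was 6 and 2, beside 1972 and 970 of 17050 genes. Under TMM rescaling it was 13 higher and 5 lower, and over all genes that rescaling moved the calls from 4175 higher and 2627 lower to 3323 higher and 3559 lower.

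The core of the cascade did not move in one direction. Of 12 Ras and kinase genes, Braf, Nras and Araf were higher, and Hras, Rras, Map2k1 and Map2k2 were lower, beside 24.3% and 15.3% of all genes. With the length and GC correction none was higher and 6 were lower, beside 2716 and 2876 of 16635 genes. Map2k2, which encodes MEK2, was at 2065 ± 486 (SD, n = 28) in Plk2-null against 3932 ± 2210 (SD, n = 13) in p53-null tumors, a log2 difference of -0.83 (adjusted p = 1.86e-05, limma). Rras was lower by a log2 difference of -0.67 and Map2k1, encoding MEK1, by -0.45, while Araf was higher by 0.24. The other 5 did not pass.

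Among 14 adaptors, exchange factors, GTPase-activating proteins and scaffolds, 8 were higher and none was lower, beside 24.3% and 15.3% of all genes. With the length and GC correction 2 were higher and 1 was lower, beside 2716 and 2876 of 16635 genes. The largest was Nf1, whose product neurofibromin returns Ras to the GDP-bound state, at 3360.4 ± 687 (SD, n = 28) against 1422 ± 509.6 (SD, n = 13), a log2 difference of 1.29 (adjusted p = 2.11e-09, limma). The scaffold gene Ksr1 (0.997) and the GTPase-activating protein genes Rasal2 (0.90) and Rasa1 (0.69) followed. Both negative regulators and the exchange factor genes Sos1 (0.50) and Sos2 (0.52), which load Ras, were thus among the higher genes.

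Of 10 feedback inhibitors, 4 were higher and none lower, beside the same 24.3% and 15.3%. With the length and GC correction 4 were higher and 1 was lower, beside 2716 and 2876 of 16635 genes. Spred3, an inhibitor related to Sprouty, was at 798 ± 335 (SD, n = 28) against 252 ± 409 (SD, n = 13), a log2 difference of 2.36 (adjusted p = 1.24e-07, limma), and Dusp4, a nuclear MAPK phosphatase gene, differed by 1.03. Spred2 (0.56) and Spry4 were the others. Of 10 transcriptional outputs, the receptor genes Epha4 (1.26) and Epha2 (0.94) were higher together with Etv4, none was lower (3 and 0 also with the correction), and Etv1, Etv5, Phlda1, Fosl1, Egr1, Ier3 and Ccnd1 did not pass. Met, the receptor gene that acts upstream of Ras, ran from 186 to 203935 in Plk2-null and from 144 to 93104 in p53-null tumors, with a log2 difference of 2.89 (adjusted p = 0.0326, limma).

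Variation among tumors was then compared between genes, within each genotype, because genotype and the title suffix of the libraries differ together. The permutations treated every tumor as separate, so related tumors within a group would make the p-values of all pairs too small. The strongest relation in the Plk2-null group was negative, between Nras and Etv5, with r = -0.76 and rho = -0.76 (permutation p = 1e-05, the smallest that 100000 resamples can give, and adjusted p = 0.00028 over 28 pairs, n = 28). Without the 2 tumors farthest from the Nras median it was -0.71. In the 25 Plk2-null tumors that were not claudin-low, a subset added after seeing the data, it was -0.70 (permutation adjusted p = 0.00336). In the p53-null group the same pair gave r = -0.13 (n = 13, permutation adjusted p = 0.904). Over all tumors it was -0.43 with the claudin-low tumors and -0.21 without them and T11 (n = 41 and 37, permutation adjusted p = 0.0332 and 0.291).

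Hras and Braf, which differed between genotypes in opposite directions, were high and low in the same tumors inside the Plk2-null group, with r = 0.64 and rho = 0.63 (permutation adjusted p = 0.00364 and 0.00728, n = 28). Leaving out the 2 tumors farthest from the Hras median gave 0.65, and leaving out the claudin-low tumors 0.67. PLK2null-7750, PLK2null-1986 and PLK2null-1984 had the 3 lowest values of both genes. Their values were close to each other (Hras, 1020.4 to 1054, and Braf, 728 to 778), and the labels do not say whether they are related. In p53-null tumors r was -0.26 (n = 13, permutation adjusted p = 0.886), and over all 41 tumors -0.25 (permutation adjusted p = 0.224).

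Dusp6, Etv4 and Etv5 are commonly read as outputs of one pathway, and over all 41 tumors Etv4 was positively related to each of the others, but not within the Plk2-null tumors once the claudin-low ones were left out. Dusp6 and Etv4 had r = 0.53 in the Plk2-null group (permutation adjusted p = 0.018, n = 28) and 0.61 in the p53-null group (permutation p = 0.029, adjusted p = 0.245, n = 13), and the pooled values were r = 0.59 and rho = 0.49 (permutation adjusted p = 0.00196 and 0.0162, n = 41). In the Plk2-null group rho was 0.27 (permutation adjusted p = 0.359), and r was 0.21 without the claudin-low tumors (permutation adjusted p = 0.475, n = 25). Etv4 and Etv5 had r = 0.61 and 0.60 in the groups (permutation adjusted p = 0.00775 and 0.245), but in the Plk2-null group r was 0.28 without PLK2null-733 and PLK2null-743 and -0.01 without the 3 claudin-low tumors (permutation adjusted p = 0.954, n = 25), so it rests on those tumors. Among these 25, r was 0.38 without PLK2null-7748 and PLK2null-7747. Over both genotypes without the claudin-low tumors and T11 (n = 37), Dusp6 with Etv4 had r = 0.54 and Etv4 with Etv5 0.45 (permutation adjusted p = 0.00347 and 0.0192). There rho was 0.40 and 0.28 (permutation adjusted p = 0.0483 and 0.162). Dusp6 and Etv5 showed little relation, with r = 0.18 and -0.06 (permutation adjusted p = 0.509 and 0.922).

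Some relations of the Sprouty genes had different signs in the genotypes, and whether they differ was not tested. Spry2 went with Dusp6 in the Plk2-null group (r = 0.53, rho = 0.50, permutation adjusted p = 0.018 and 0.0693, n = 28, and r = 0.63 without the claudin-low tumors), and in the p53-null group r was -0.43 (permutation adjusted p = 0.559, n = 13). Spry4 and Etv5 had r = -0.59 in the Plk2-null group (permutation adjusted p = 0.0101, n = 28), which became -0.28 without PLK2null-732 and PLK2null-733 and 0.09 without the 3 claudin-low tumors, and so rests on them. Spry4 and Etv4 had r = -0.46 in the Plk2-null and 0.63 in the p53-null group (permutation adjusted p = 0.0559 and 0.245). In the Plk2-null group rho was only -0.06 (permutation adjusted p = 0.830). Without the 3 claudin-low tumors r was positive there as well, at 0.35 (permutation adjusted p = 0.181, n = 25). Over both genotypes without these tumors and T11 it was 0.70 (permutation adjusted p = 0.00056, n = 37). Spry2 and Spry4 themselves gave r = 0.20 in both groups (permutation adjusted p = 0.464 and 0.899).

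Over all 41 tumors 7 of 28 pairs passed on r and 4 on rho, and besides the pairs above these were the negative relations of Hras with Etv4 (-0.49), Spry4 (-0.43), Nras (-0.41) and Spry2 (-0.39), none of which passed within a genotype. Within the Plk2-null group 6 pairs passed on r and 2 on rho, 3 and 3 without the claudin-low tumors, and within the p53-null group none did (4 of 28 had an unadjusted permutation p under 0.05 on r and 1 on rho).

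**Figure D4:**
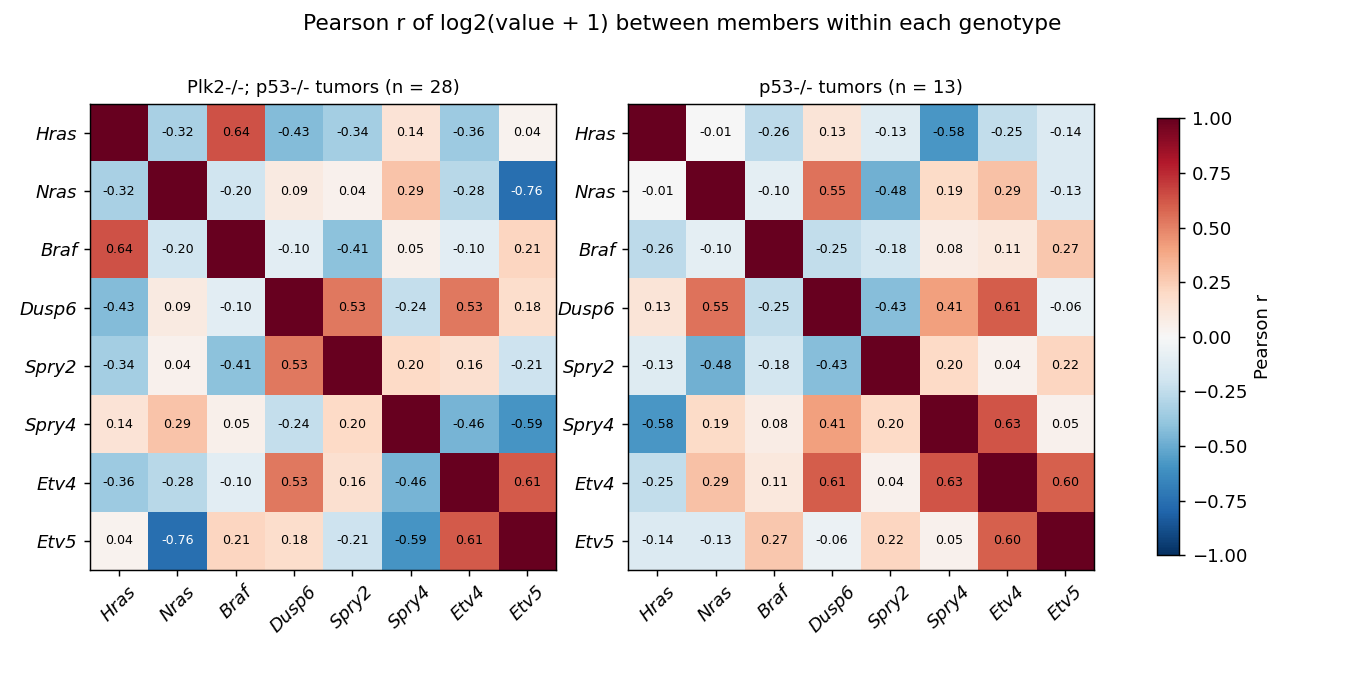
Pearson r of log2(value + 1) between each pair of the 8 genes, with red for positive and blue for negative values, in Plk2-/-; p53-/- tumors (n = 28) on the left and p53-/- tumors (n = 13) on the right. Dusp6 with Etv4 and Etv4 with Etv5 are positive on both sides, and Hras with Braf (0.64) and Nras with Etv5 (-0.76) stand out on the left.

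The genes whose levels were most like each member over the 41 tumors were, for the Ras and kinase genes, mostly genes of the same chromosome. For Braf they were Ubn2 (r = 0.92), Luc7l2 (0.91) and Kdm7a (0.87), which start 1.17, 1.05 and 0.47 Mb from Braf on chromosome 6. For Nras they were Ddx20 (0.82), Arhgef2 (0.80) and Sec24b (0.79), all on chromosome 3, and for Hras Mob2 (0.86) and Mrpl48 (0.85), both on chromosome 7, and Thoc7 (0.85) on chromosome 14. These are descriptions over 41 libraries that share genotype and depth differences. Within the genotypes, Braf with Ubn2, Luc7l2 and Kdm7a had r = 0.89, 0.90 and 0.87 in Plk2-null but 0.48, 0.25 and 0.53 in p53-null tumors. For the genes named with Nras and Hras, r within a genotype was between 0.61 and 0.88. For the feedback and output genes the most alike all lay on other chromosomes. For Dusp6 they were Tnnt2 (0.78), Gzme (0.74) and Enkd1 (0.72), and for Spry2 Slitrk2 (0.70), Egr1 (0.63) and Clk3 (0.62). For Spry4 they were Fhod1 (0.75), Ugcg (0.75) and Epha2 (0.71). For Etv4 they were Hectd2 (0.80), Bcar3 (0.75) and Dusp4 (0.73), and for Etv5 Nrg2 (0.84), Sema3b (0.83) and Shisa8 (0.83). Spry4 and Epha2 had r = 0.18 within the Plk2-null and 0.87 within the p53-null tumors. Etv4 and Dusp4 had r = 0.69 and 0.70 within the genotypes, and Etv5 and Nrg2, a ligand gene of the ErbB receptors, 0.94 in Plk2-null and 0.55 in p53-null tumors.

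Because the genes most like Braf lie near it, the tested genes within 1 Mb on either side were summarized in each tumor. Of 18 such genes, 5 were higher and 1 was lower in Plk2-null tumors, near the 24.3% of all genes called higher, with a median log2 difference of 0.29. In PLK2null-1970, the tumor with most Braf (1.87 above its median, log2), the neighbours had a median deviation of 1.501. The next was PLK2null-1971, with 1.18 for Braf and 1.15 for its neighbours. In the tumors that followed, the neighbours were less raised than Braf. The values were 1.11 and 0.45 in PLK2null-7763, 1.08 and 0.29 in PLK2null-1963, 0.996 and 0.65 in PLK2null-1967, and 0.95 and 0.20 in PLK2null-7747. At the other end PLK2null-1984, PLK2null-1985, PLK2null-1986 and PLK2null-7750, the 4 Plk2-null tumors with least Braf, had neighbour deviations of -0.77, -0.83, -1.05 and -0.62. In p53-null tumors Braf was further below its median than its neighbours were in every one, for instance -1.49 against -0.31 in p53null-10152. Around Nras, 11 of 23 tested genes were higher and 1 lower (median, 0.35), and around Hras 8 of 44 were higher and 12 lower (median, -0.29), beside 24.3% and 15.3% of all genes. Around Spry4, 15 of 34 were higher and none lower, with a median of 0.66 beside 0.65 for Spry4 itself. The highest of them was the protocadherin gene Pcdhga12 (2.18). Whether these entries share exons or reads was not tested, so they may not be separate neighbours. Around Etv4 13 of 59 were higher and 8 lower, and around Etv5 4 of 18 and 1. Dusp6 and Spry2 had only 5 and 2 tested neighbours.

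**Figure D5:**
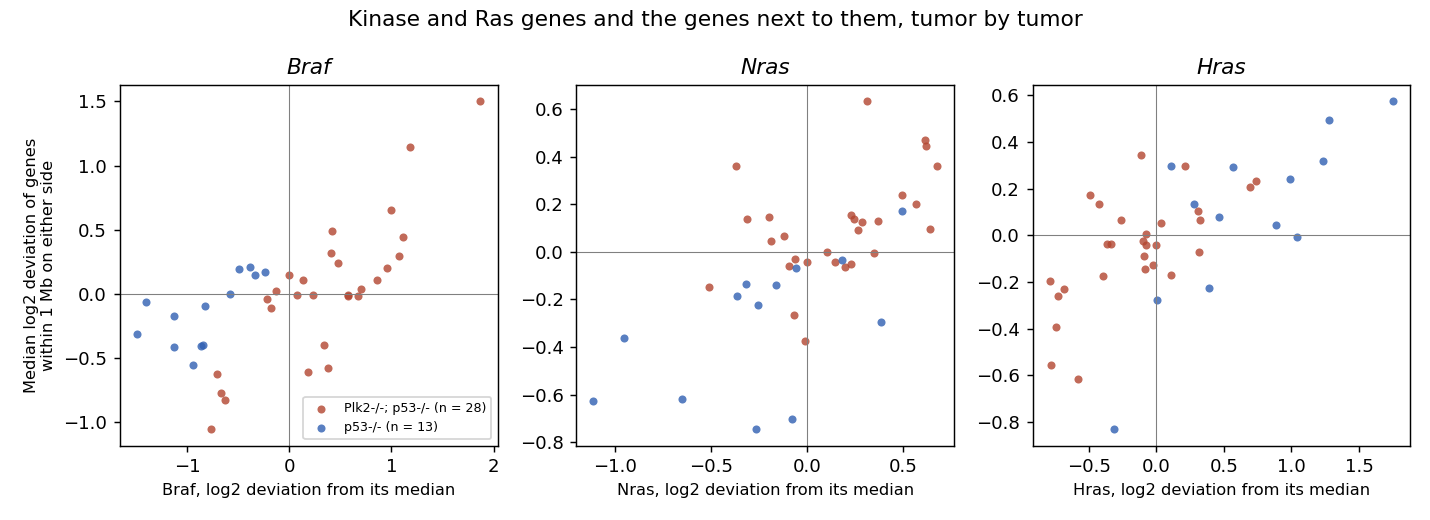
Each point is a tumor, with the log2 deviation of Braf, Nras or Hras from its median on the horizontal axis and the median log2 deviation of the tested genes within 1 Mb on either side on the vertical axis, Plk2-/-; p53-/- tumors in red and p53-/- tumors in blue. For Braf the neighbours reach 1.501 in PLK2null-1970 and -1.05 in PLK2null-1986.

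The promoters of the 8 genes were searched for the ETS sequences CCGGAAGT and AGGAAG and the AP-1 sequence TGANTCA. The search covered both strands, from 250 bases before to 50 after the start (RefSeq, GRCm38.p6). Of 32851 windows in the table, 3.89% held CCGGAAGT, 35.4% AGGAAG and 7.81% TGANTCA. Of the 8 genes, 6 were in it, and AGGAAG was found once each in Hras, Braf and Dusp6, while the windows of Nras, Spry2 and Etv5 held none of the 3. The window of Dusp6 is shown with the match in capitals, read on the opposite strand and starting 210 bases before the start (chr10:99262981-99263280, plus strand).
Dusp6: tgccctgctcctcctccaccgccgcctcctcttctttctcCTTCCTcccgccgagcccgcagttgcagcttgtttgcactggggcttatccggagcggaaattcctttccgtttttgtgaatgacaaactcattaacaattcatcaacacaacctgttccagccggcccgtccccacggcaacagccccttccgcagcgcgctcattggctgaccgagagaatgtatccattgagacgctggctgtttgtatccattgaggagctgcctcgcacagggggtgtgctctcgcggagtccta
A match is a description of letters and not a binding site. AGGAAG in 3 of 6 genes stands beside 35.4% of all windows, and 6 genes are too few to tell these shares apart.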

How the data were processed

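Per the labels, mRNA libraries of 41 mouse mammary tumors were sequenced from both ends with 50-base reads. The authors aligned reads to mm10 with STAR and quantified genes with Salmon, and the submitters' processing notes name STAR 2.7.6a, Salmon 1.4.0, Picard 2.22.4 and SAMtools. The deposited values are a linear signal, estimated counts normalized by upper quartile. The upper quartile of nonzero values was 1000 in the tumor checked, and the others were not checked. In each tumor 77.8 to 80.5% of nonzero values lay within 0.1 read of a whole number of reads, too few for a count model.

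Genotype came from the labels, and the claudin-low class and the numbers of primary tumors were read from names printed in the paper's supplementary figures. Whether the piece sequenced was the primary tumor or a transplant of it is not given in the sources used here. Genes with a mean of at least 10 over 41 tumors were tested on log2(value + 1), which understates changes of low genes, with limma 3.58.1 in R 4.3.3 and Benjamini-Hochberg adjustment (threshold 0.05). On simulated data for 28 against 13 tumors, 53 of 91 genes changed by 1 on the log2 scale, 99 of 109 changed by 2 and 7 of 17008 unchanged genes were called. The simulated noise was independent between genes and tumors, with no related tumors and no trend with length or GC content. Its share of false calls therefore cannot be carried over to the calls made here. Correlations used permutation tests with 100000 resamples, two-sided, adjusted over 28 pairs. The length and GC correction subtracted, in each tumor, the median deviation of genes in 20 bins of longest annotated transcript (GENCODE vM21, 96.7% of tested genes) and then of GC content. Other steps used Python 3.11.15, numpy 2.4.6, pandas 2.3.3, scipy 1.17.1 and matplotlib 3.10.9.

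The 8 genes and the pathway lists were chosen with earlier results of these data known. Named genes were the 8, up to 4 called list genes with the largest change per list and direction, the most alike genes by r over 41 tumors, Plk2, Trp53 and Met. List genes named beyond these were chosen after their values were seen. Alternatives were other pseudocounts, filters, scalings, limma settings and subsets of tumors. No column was left unused. Protein sequences, and the promoters of Spry4 and Etv4, were not used here, and some members of the pathway lists and some sequences are not reported here.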

Additional observations from a re-analysis of the deposited data

How the results depend on the processing

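All 8 genes kept their direction in every fit. With only the 7 named primary tumors against 13 (limma), the genes called dropped from 6802 to 2942 and the list genes called from 22 to 8, and 4 of the 5 calls were lost: Hras (-0.62), Nras (0.28), Spry4 (0.44, adjusted p = 0.557) and Etv4 (0.76). Nras was also lost under TMM rescaling (0.28), and Spry4 under no filter (0.65), TMM rescaling (0.53), quantile normalization (0.61) and without p53null-7435 (0.52). Fits added after seeing the data lost Spry4 without PLK2null-7763 (0.64, adjusted p = 0.0511) and in the 21 tumors other than the 7 primary ones against 13 (0.72, adjusted p = 0.0518), and the length and GC correction lost Nras (0.044), Braf (0.44) and Spry4 (0.41), where the bins also centre each tumor.

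Leaving out each of the 41 tumors in turn, Hras ranged from -0.91 to -0.74, Nras from 0.33 to 0.46, Braf from 1.12 to 1.22 and Etv4 from 0.71 to 1.03, called in all 41. Spry4 ranged from 0.52 to 0.88 and was called in 23, Spry2 from 0.29 to 0.45 and was called in 5. Dusp6 (0.21 to 0.43) and Etv5 (0.07 to 0.34) were called in none.

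Of 28 pairs of genes, the 7 whose correlation passed over 41 tumors became 0 within the 13 p53-null tumors, 0 in the 7 primary and 13 p53-null tumors, 14 without the claudin-low tumors and T11 and 3 within the other 25 Plk2-null tumors, a subset added after seeing the data. The sign of Hras with Spry4 reversed within the 28 Plk2-null tumors (r = 0.14, against -0.43), and that of Etv4 with Etv5 within the 25 (r = -0.012, against 0.55). The cause was not tested.

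No paired analysis was possible because the labels give the tumors no shared replicate numbers. No count model was used, since too few values were whole reads. Genotype and the suffix in the p53-null titles cannot be told apart.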
